A study of Homo sapiens with 6 samples.

Results

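The nuclear genome encodes most subunits of the 5 enzyme complexes of oxidative phosphorylation, and 91 gene IDs for them (87 symbols) were taken from the 63152 genes counted. Members were chosen by name among autosomal and X-linked genes. Their symbols consist of NDUFA, NDUFB, NDUFC, NDUFS or NDUFV and a number (NDUFA4L2 included), name SDHA to SDHD or CYC1, or start with UQCR, COX4 to COX8 or ATP5. NDUFAB1, the NDUFAF genes and symbols with a hyphen were thus not matched. No measured value entered the rule. Of 180 rows with a matching symbol, 85 were dropped because the symbol ended in P and digits, as names of pseudogenes do, and 4 because they lay on sequences outside the main chromosomes. Complex I had 40 gene IDs, complex II 5, complex III 10, complex IV 17 and complex V 19. NDUFA7, NDUFB8, SDHD and UQCR11 had 2 gene IDs each.

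The cells were A549, a line from a human lung adenocarcinoma, whose total RNA was made into libraries with a standard Illumina kit and read in pairs of 50 bases. One group was transfected with a SMARTpool of siGENOME siRNAs against RPS19 (siRPS19), a protein gene of the small ribosomal subunit, and the other with an ON-TARGETplus non-targeting siRNA (siOTP), each at 10 nM and for 72 h with 3 biological replicates. The target and the siRNA product line differed together and cannot be told apart, and A549 stands here for 1 cell line. The libraries measure mRNA and not protein or respiration.

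The siRPS19 libraries and the siOTP libraries held 20814110 to 23889372 counts on genes. RPS19 had 44.6, 36.0 and 44.4 CPM (counts relative to the library total, scaled with TMM factors) in siRPS19 libraries, against 1474, 1374 and 1567 CPM in siOTP libraries. Its log2 fold change of siRPS19 over siOTP was -5.14 ± 0.09 (SE). The adjusted p was 4.98e-12, from the quasi-likelihood test of edgeR that also gave each adjusted p for which no other tool is named. In this text a gene rose or fell where that p, adjusted over all genes tested, was under 0.05. Of 17171 genes tested, 78.3% passed, 39.5% higher and 38.9% lower, with a median log2 fold change of 0.02. Reads outside genes made up 5.13% to 6.36% of entries in siRPS19 and 3.39% to 3.85% in siOTP, and their part in the results was not tested. All 10 markers of A549 epithelium were detected, while leukocyte markers summed to 1.85 to 2.90 CPM in siRPS19 and 1.49 to 2.28 CPM in siOTP, with CD3E at 0. Endothelial and fibroblast markers summed to 14.2 to 20.0 CPM in siRPS19 and 32.2 to 39.8 CPM in siOTP, nearly all of it COL1A1, and of the A549 markers 9 fell and CDH1 rose; the part of these differences in the results was not tested.

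Complexes I to IV pass electrons from NADH and succinate to oxygen, and complexes I, III and IV pump protons across the inner mitochondrial membrane as they do so. Complex V, the ATP synthase, lets the protons flow back and makes ATP. Complexes I, III, IV and V also hold subunits encoded in mitochondrial DNA, whereas all of complex II is nuclear-encoded. Many nuclear genes of this set are known to carry binding sites of NRF1, ETS-family factors such as GABPA, and YY1 in their promoters.

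Of the 91 members, 79 passed the filter on low counts and were tested. Among these, 55 fell, 9 rose and 15 did not pass, so that 69.6% fell and 11.4% rose, against the 38.9% and 39.5% of all tested genes. The members' median log2 fold change was -0.33, with a range of -2.04 to 1.81. Of the 79 tested members, 23 fell at least 1.5-fold and 7 at least 2-fold, against 23.5% and 12.4% of all tested genes. Whether the members' shares at these 2 cuts differ from those of all tested genes was not tested. Only 3 rose at least 1.5-fold (NDUFA13, NDUFC2 and NDUFA7), as 27.5% of all tested genes did. The values of the 3 siRPS19 libraries and the 3 siOTP libraries did not overlap for 63 tested members (79.7%), the same share as the 79.7% of all tested genes. A smaller number of cells with a given mRNA and less of it per cell cannot be told apart in bulk RNA.

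By complex, 23 of 38 tested complex I genes fell and 7 rose, with a median log2 fold change of -0.23. In complex II 2 of 4 fell and 1 rose, with a median of -0.23. Complex III had 7 of 8 that fell and a median of -0.39, complex IV 10 of 12 that fell, 1 that rose and a median of -0.38, and complex V 13 of 17 that fell and a median of -0.53. No gene of complex III or V rose in edgeR's quasi-likelihood test, DESeq2 or limma-voom, and none was higher at an unadjusted p under 0.05 in these 3. When libraries were scaled by their totals alone, log2 fold changes of all genes moved up by a median of 0.29, the medians of complexes I and II turned to 0.06 and 0.05, and 3 genes of complex III and 4 of complex V rose. Set against the median of all genes under that scaling, the medians were -0.25 for complex I, -0.26 for II, -0.41 for III, -0.40 for IV and -0.55 for V. A change of scaling moves all genes by nearly the same amount, so these differences are nearly the same with TMM factors by construction. Complexes I and II had nearly the same median, as did III and IV. The median of complex V ranged from -0.64 to -0.33 as libraries were left out in turn, with -0.33 without replicate 1 of both groups, and so overlapped the values of complexes III and IV. With all libraries that median is the value of ATP5I, a gene with 95 to 145 counts per library (SE 0.14). The genes next to it in rank, ATP5SL and ATP5J, had -0.67 and -0.38.

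**Figure D1:**
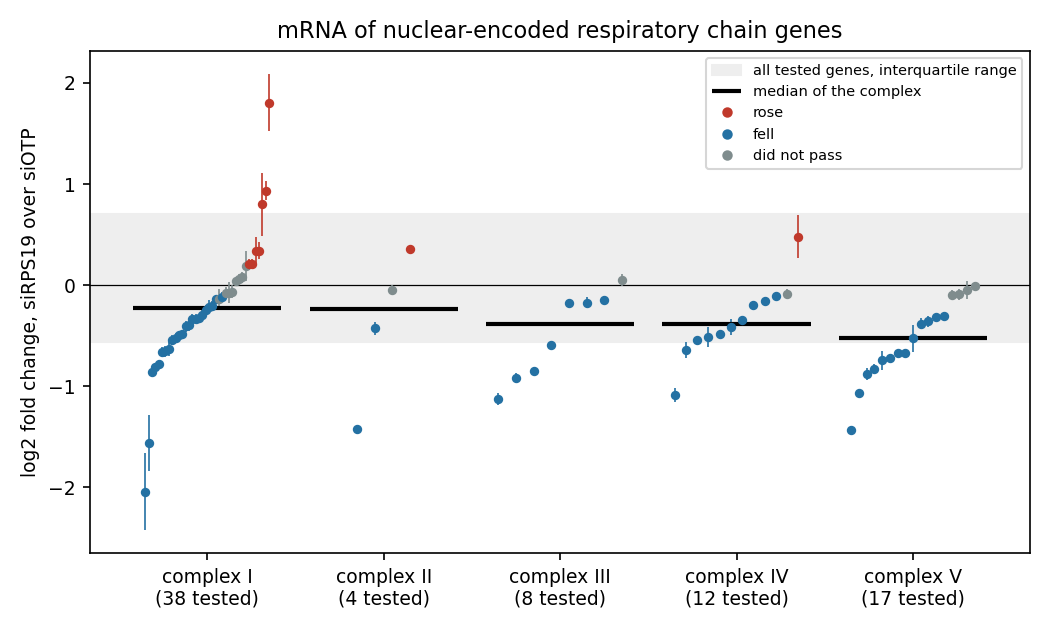
Log2 fold change of siRPS19 over siOTP (y axis) for each of the 79 tested members, grouped by complex (x axis). Points are genes with their standard errors, coloured by the edgeR call, black lines are medians of the complexes, and the grey band is the interquartile range of all tested genes. The medians lie between -0.53 and -0.23, and complex I has both the lowest value (-2.04) and the highest (1.81).

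The summed levels of the complexes differed in size of change. Complex V summed to 1987, 2090 and 2084 CPM in siRPS19 libraries, against 3595, 3566 and 3665 CPM in siOTP libraries, a sum 1.76-fold lower in siRPS19. Most of that difference lay in 1 gene, ATP5B, which averaged 513 CPM in siRPS19 and 1388 CPM in siOTP. Complex III summed to 926 ± 29.9 CPM in siRPS19 and 1420 ± 34.7 CPM in siOTP (SD of 3 libraries each), or 1.53-fold lower. The sums of complex I and complex IV were 1.23-fold and 1.25-fold lower. Complex II had 421 ± 9.26 CPM in siRPS19 and 454 ± 7.23 CPM in siOTP (SD of 3 libraries each), 1.08-fold lower. With TMM factors the 3 siRPS19 libraries were below the 3 siOTP libraries in all 5 sums, for which an exact two-sided permutation test cannot go below 0.1. These directions depend on the scaling. In CPM from library totals, with no factor, complex II was higher, at 465 ± 15.3 CPM in siRPS19 and 411 ± 6.78 CPM in siOTP (SD of 3 libraries each), or 1.13 times the siOTP level. The groups then overlapped for complexes I and IV, with siRPS19 at 0.993 and 0.977 times the siOTP level, and complexes III and V were 1.26-fold and 1.44-fold lower.

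**Figure D2:**
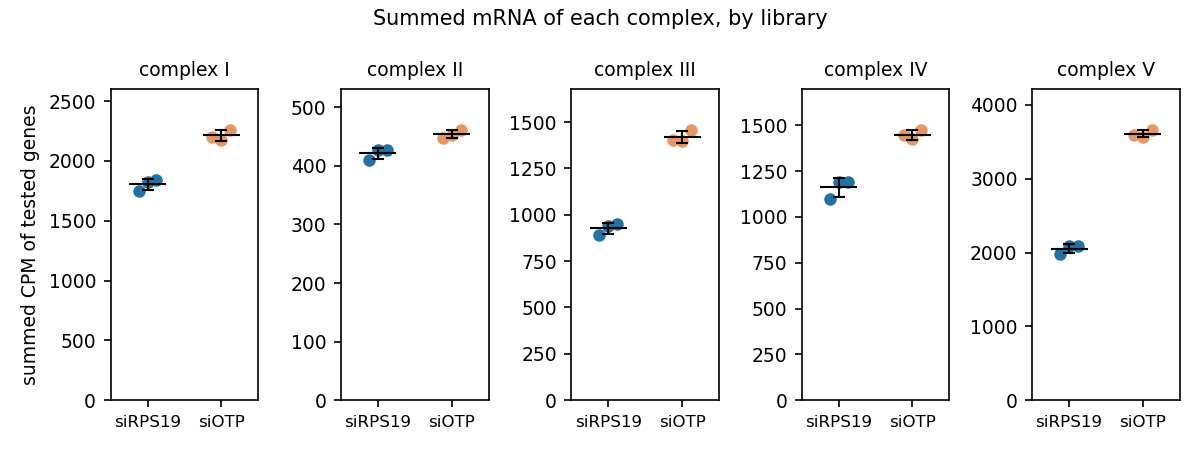
Summed CPM of the tested genes of each complex (y axis, from 0, with its own scale per panel) in the 3 siRPS19 and the 3 siOTP libraries (points), with mean and SD (lines). With TMM factors the groups are apart in all 5 panels, by 1.76-fold in complex V and by 1.08-fold in complex II, whereas with library totals complex II is higher in siRPS19 and the groups overlap for complexes I and IV.

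Complex I, the NADH dehydrogenase, has a matrix arm that carries flavin and iron-sulfur clusters and a membrane arm that pumps protons. Of its core subunits, which carry out electron transfer, NDUFV1, which binds NADH, NDUFS1 and NDUFS3 fell, and the iron-sulfur subunits NDUFS7 and NDUFS8 did not pass. Of 29 tested accessory subunits, 17 fell and 7 rose. Of 16 matrix-arm genes 10 fell, 6 of them at least 1.5-fold, and of 20 membrane-arm genes 12 fell, 1 of them at least 1.5-fold. The median was -0.23 in both arms, with lower quartiles of -0.68 in the matrix arm and -0.43 in the membrane arm, and the difference between the arms was not tested.

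NDUFS1 (ENSG00000023228, chromosome 2, 206979541 to 207024327, hg19), the largest core subunit, had 93.9, 93.0 and 95.9 CPM in siRPS19 libraries, against 165, 172 and 161 CPM in siOTP libraries. Its log2 fold change was -0.81 ± 0.04 (SE, adjusted p = 1.13e-13). The core subunit NDUFS3 had 45.4, 45.4 and 47.9 CPM in siRPS19 libraries, against 80.9, 75.1 and 82.7 CPM in siOTP libraries (log2 fold change -0.78 ± 0.05 SE, adjusted p = 5.69e-12). For both genes each siRPS19 library was far below each siOTP library. NDUFA12, an accessory subunit of the matrix arm, had 28.6, 28.0 and 30.5 CPM in siRPS19 libraries, against 51.9, 50.4 and 55.0 CPM in siOTP libraries (log2 fold change -0.85). NDUFB10, of the membrane arm, had 57.0, 55.1 and 61.5 CPM in siRPS19 libraries, against 94.0, 88.8 and 91.8 CPM in siOTP libraries (log2 fold change -0.66). At the small end of the falls, NDUFV1 had a log2 fold change of -0.14 and NDUFS4 of -0.12, and both are above 0 with library totals (0.15 and 0.17). The call of NDUFS4 was lost without siRPS19 replicate 1 (adjusted p = 0.11) or replicate 3 (adjusted p = 0.14).

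Of the 7 complex I genes that rose, all but NDUFV3 shared their span with other annotated genes, as did 26 of all 38 tested complex I genes. NDUFA13 (ENSG00000186010, chromosome 19, 19626545 to 19644285, hg19), also known as GRIM-19, had 2.39, 1.60 and 2.15 CPM in siRPS19 libraries, against 0.336, 0.557 and 0.877 CPM in siOTP libraries. These values stand for 62, 37 and 52 counts in siRPS19 and 7, 11 and 17 counts in siOTP, and the log2 fold change was 1.81 ± 0.29 (SE, adjusted p = 8.59e-06). Its span overlaps YJEFN3 on the same strand, which averaged 275 counts in siRPS19 libraries and 98.3 counts in siOTP libraries. NDUFC2, a membrane-arm subunit, had 14.8, 17.1 and 14.1 CPM in siRPS19 libraries, against 7.72, 8.05 and 8.30 CPM in siOTP libraries (log2 fold change 0.93 ± 0.10 SE, adjusted p = 1.69e-08). It lies within a read-through gene annotated as NDUFC2-KCTD14. How reads of overlapping genes were assigned is not given in the sources used here, and the part of overlap in these values was not tested.

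The other 5 rises of complex I were smaller. NDUFA7 had 0.615, 0.997 and 1.03 CPM in siRPS19 libraries, against 0.480, 0.557 and 0.464 CPM in siOTP libraries, a log2 fold change of 0.80 that did not pass in DESeq2 (adjusted p = 0.18). NDUFA11 had 6.15, 5.90 and 6.66 CPM in siRPS19 libraries, against 5.95, 4.81 and 3.97 CPM in siOTP libraries, with groups that overlap, a log2 fold change of 0.34 and adjusted p = 0.15 in DESeq2. NDUFA2 had 22.7, 27.7 and 28.0 CPM in siRPS19 libraries, against 19.8, 19.7 and 22.4 CPM in siOTP libraries (log2 fold change 0.34). All 3 are accessory subunits, and all 3 overlap other genes. In edgeR NDUFA7 did not pass without siOTP replicate 1 or 3 (adjusted p = 0.079 and 0.078) or without siRPS19 replicate 2 or 3 (adjusted p = 0.077 and 0.096). NDUFA11 did not pass without siOTP replicate 2 or 3 (adjusted p = 0.084 and 0.21) or without siRPS19 replicate 3 (adjusted p = 0.083). NDUFB2 had 55.9, 56.6 and 57.0 CPM in siRPS19 libraries, against 48.8, 48.6 and 49.2 CPM in siOTP libraries (log2 fold change 0.21). NDUFV3, which overlaps no other gene, had 36.6, 38.4 and 39.9 CPM in siRPS19 libraries, against 34.5, 31.0 and 33.9 CPM in siOTP libraries (log2 fold change 0.21, adjusted p = 0.0031, and adjusted p = 0.056 in DESeq2). In both genes the groups were apart by a small margin.

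The largest falls by ratio in complex I were also in genes with few counts. NDUFV2, a core iron-sulfur subunit, had 6, 8 and 2 counts in siRPS19 libraries, against 17, 21 and 17 counts in siOTP libraries, for a log2 fold change of -2.04 ± 0.38 (SE, adjusted p = 6.54e-05). A pseudogene named for NDUFV2 held more counts than NDUFV2 itself, 931% of its count in siRPS19 and 376% in siOTP, so the level listed for NDUFV2 is uncertain. NDUFA4L2, a paralog of NDUFA4 known to be induced by hypoxia, had 0.423, 0.607 and 0.372 CPM in siRPS19 libraries, against 1.25, 1.47 and 1.44 CPM in siOTP libraries (log2 fold change -1.56 ± 0.28 SE, adjusted p = 3.18e-05). It overlaps SHMT2 on the opposite strand, which averaged 1537 counts in siRPS19 libraries and 4030 counts in siOTP libraries. NDUFA4, whose protein is found in complex IV, had 135, 153 and 150 CPM in siRPS19 libraries, against 142, 140 and 144 CPM in siOTP libraries, with overlapping groups and a log2 fold change of 0.04. Without siRPS19 replicate 1, the lowest library, NDUFA4 passed at 0.11 (adjusted p = 0.032).

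**Figure D3:**
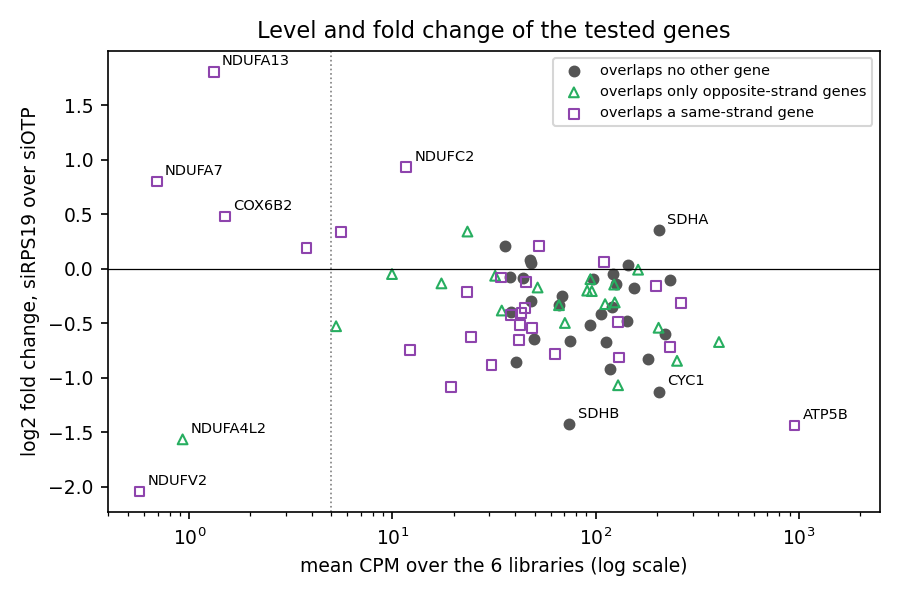
Mean CPM over the 6 libraries (x axis, log scale) against log2 fold change of siRPS19 over siOTP (y axis) for the 79 tested members, by whether the gene's span overlaps other annotated genes (symbols), with a dotted line at 5 CPM. NDUFA13, NDUFA7, COX6B2, NDUFA4L2 and NDUFV2 lie left of the line, and SDHB, CYC1 and ATP5B fall at high levels.

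Overlap with a gene on the same strand went with low counts. Members with no overlap had a median of 1622 counts per library (33 gene IDs) and members overlapping only opposite-strand genes 1770 (22 gene IDs), whereas members overlapping a same-strand gene had 594 (36 gene IDs). Of the 29 tested members with no overlap, 20 fell, 2 rose (SDHA and NDUFV3) and the median log2 fold change was -0.33. Among the 73 members at a mean of 5 CPM or more, 53 fell and 6 rose. Across the 79 tested members the log2 fold change had a Spearman correlation of -0.23 with the level and 0.14 with the transcript length the authors used. These values describe genes that share the same 6 libraries.

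Complex II, succinate dehydrogenase, links the citric acid cycle to the respiratory chain, and its 4 genes did not move together. SDHB (ENSG00000117118, chromosome 1, 17345217 to 17380665, hg19), the iron-sulfur subunit, had 39.7, 40.9 and 40.3 CPM in siRPS19 libraries, against 107, 106 and 112 CPM in siOTP libraries. It fell 2.69-fold (log2 fold change -1.43 ± 0.04 SE, adjusted p = 5.58e-17). SDHA (ENSG00000073578, chromosome 5, 218356 to 256815, hg19), the flavoprotein that oxidises succinate and pairs with SDHB in the catalytic head, had 224, 223 and 239 CPM in siRPS19 libraries, against 177, 178 and 182 CPM in siOTP libraries. SDHA rose 1.28-fold, with a log2 fold change of 0.35 ± 0.04 (SE) and adjusted p = 6.25e-08, and the groups were apart. Neither gene overlaps another annotated gene.

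Both membrane anchors of complex II moved less. SDHD had 30.4, 36.4 and 31.7 CPM in siRPS19 libraries, against 43.0, 45.9 and 43.1 CPM in siOTP libraries (log2 fold change -0.43 ± 0.06 SE, adjusted p = 3.68e-06). SDHC had 116, 126 and 115 CPM in siRPS19 libraries, against 120, 123 and 125 CPM in siOTP libraries, with overlapping groups and a log2 fold change of -0.04 (adjusted p = 0.34). With library totals SDHC was above 0, at 0.24. The log2 ratio of SDHB to SDHA was -2.51 ± 0.06 in siRPS19 and -0.73 ± 0.02 in siOTP (SD of 3 libraries each), a difference of -1.78 that no scaling of a library can change. That pair was picked after its values were seen, so the difference is given with no test. Pseudogenes named for SDHA held counts equal to 12.4% of SDHA's in siRPS19 and 11.7% in siOTP.

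**Figure D4:**
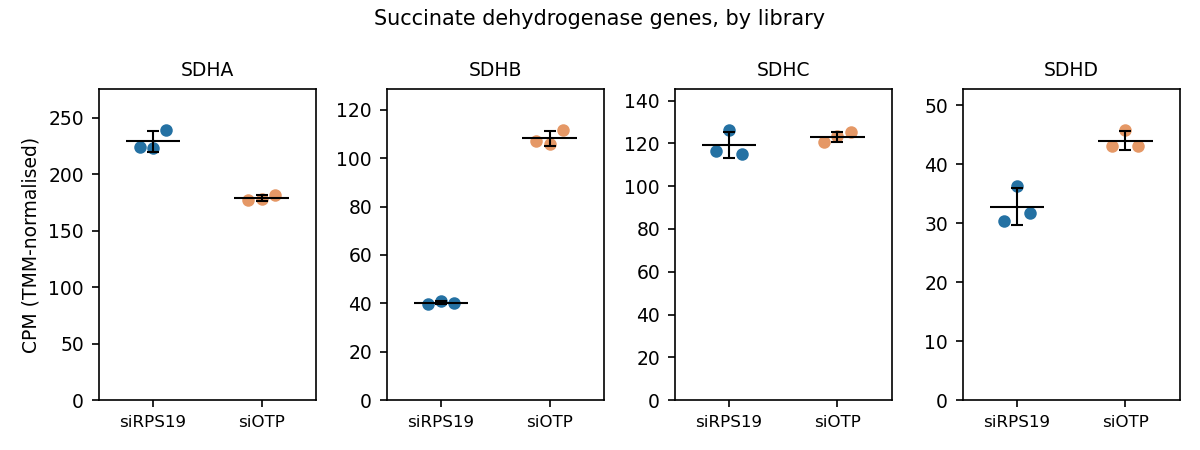
CPM (y axis, from 0, with its own scale per panel) of SDHA, SDHB, SDHC and SDHD in the 3 siRPS19 and the 3 siOTP libraries (points), with mean and SD (lines). SDHA is higher in siRPS19, SDHB and SDHD are lower, and the groups overlap for SDHC.

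Promoters of members were read from RefSeq (GRCh38.p14) and searched on both strands for exact matches to the ETS-family sequence CCGGAAGT. Below are the 250 bases before the start of 3 genes, each written 5′ to 3′ on the gene's strand with a match in capitals. SDHA and SDHB are shown because they moved in opposite directions within a single enzyme, and NDUFS1 as the member of complex I that fell with the smallest p.
SDHA (chr5:218070-218319, plus strand): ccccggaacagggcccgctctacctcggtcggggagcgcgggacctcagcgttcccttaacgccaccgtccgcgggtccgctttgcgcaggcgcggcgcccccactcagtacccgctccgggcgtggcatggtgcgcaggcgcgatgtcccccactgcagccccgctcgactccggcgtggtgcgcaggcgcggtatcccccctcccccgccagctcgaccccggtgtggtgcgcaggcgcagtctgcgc
SDHB (chr1:17054033-17054282, minus strand): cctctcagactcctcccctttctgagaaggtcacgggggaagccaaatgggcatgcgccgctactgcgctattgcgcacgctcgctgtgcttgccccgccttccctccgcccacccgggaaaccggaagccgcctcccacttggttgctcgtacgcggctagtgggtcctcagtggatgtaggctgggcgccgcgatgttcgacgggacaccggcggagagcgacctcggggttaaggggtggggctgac
NDUFS1 (chr2:206159445-206159694, minus strand): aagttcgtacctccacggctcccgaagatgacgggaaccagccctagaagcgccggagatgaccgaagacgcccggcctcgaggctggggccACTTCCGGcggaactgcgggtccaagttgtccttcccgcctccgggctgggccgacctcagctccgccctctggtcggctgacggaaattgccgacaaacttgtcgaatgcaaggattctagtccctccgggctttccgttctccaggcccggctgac

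The capitals mark 1 match to the ETS-family sequence, on the other strand, in NDUFS1, and SDHA and SDHB held no exact match in their 250 bases. Near matches were not counted, such as ccggaagc in SDHB, which differs in the last base. In windows of 300 bases that also hold the 50 bases after the start, the sequence was in 9 of 67 member promoters (13.4%), against 4.14% of all 35116 promoters and 5.34% of those of coding genes. Of 8 tested members with an exact match, 5 fell and 1 rose, with a median log2 fold change of -0.30, and of 55 without it 40 fell and 7 rose, with a median of -0.35. A match describes letters in a window and says nothing on whether a factor was bound.

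Complex III, the cytochrome bc1 complex, hands electrons from ubiquinol to cytochrome c. Both of its nuclear-encoded catalytic subunits fell. UQCRFS1 (ENSG00000169021, chromosome 19, 29698173 to 29704448, hg19), the Rieske iron-sulfur protein, had 172, 185 and 183 CPM in siRPS19 libraries, against 327, 321 and 320 CPM in siOTP libraries (log2 fold change -0.84 ± 0.04 SE, adjusted p = 4.45e-14). CYC1, cytochrome c1, had 121, 133 and 133 CPM in siRPS19 libraries, against 278, 260 and 306 CPM in siOTP libraries (log2 fold change -1.13 ± 0.06 SE, adjusted p = 5.35e-11). Each siRPS19 library was well below each siOTP library in both genes. Pseudogenes named for UQCRFS1 held counts equal to 12.1% of UQCRFS1's in siRPS19 and 11.6% in siOTP.

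UQCRH, the hinge protein between cytochrome c1 and cytochrome c, had 80.3, 79.2 and 86.0 CPM in siRPS19 libraries, against 144, 162 and 157 CPM in siOTP libraries (log2 fold change -0.92). The core proteins UQCRC1 and UQCRC2 differed in size of change. UQCRC2 had 174, 174 and 179 CPM in siRPS19 libraries, against 261, 262 and 273 CPM in siOTP libraries (log2 fold change -0.59), while UQCRC1 had a log2 fold change of -0.18, which is 0.11 with library totals. The small subunits UQCRB and UQCRQ had log2 fold changes of -0.14 and -0.17, both above 0 with library totals (0.14 and 0.12). Without siRPS19 replicate 1 neither passed (adjusted p = 0.062 for UQCRB and 0.10 for UQCRQ). UQCR10 had 45.0, 50.9 and 50.3 CPM in siRPS19 libraries, against 44.3, 47.7 and 49.0 CPM in siOTP libraries, with overlapping groups and a log2 fold change of 0.05. Both gene IDs of UQCR11 had too few counts to be tested, and they overlap each other.

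Complex IV, cytochrome c oxidase, reduces oxygen with catalytic subunits encoded in mitochondrial DNA, and its nuclear-encoded subunits surround them. Of 10 genes of its ubiquitous subunits 9 fell, and COX5B, which binds zinc, did not pass (log2 fold change -0.09), except without siOTP replicate 2 (-0.14, adjusted p = 0.027). COX6A1, the form found outside heart and muscle, had 12.5, 12.3 and 12.5 CPM in siRPS19 libraries, against 27.8, 25.2 and 26.0 CPM in siOTP libraries (log2 fold change -1.08 ± 0.07 SE, adjusted p = 1.13e-11). Pseudogenes named for COX6A1 held 79.0% as many counts as COX6A1 in siRPS19 and 80.9% in siOTP, so its level is uncertain while that share was close in both groups. COX4I1, which takes part in the regulation of the enzyme by ATP, had 163, 168 and 168 CPM in siRPS19 libraries, against 240, 238 and 247 CPM in siOTP libraries (log2 fold change -0.54). COX5A had 117, 121 and 119 CPM in siRPS19 libraries, against 168, 163 and 166 CPM in siOTP libraries (log2 fold change -0.48). COX7A2L, which takes part in joining complexes into supercomplexes, had 105, 108 and 106 CPM in siRPS19 libraries, against 133, 137 and 136 CPM in siOTP libraries (log2 fold change -0.35).

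The falls of the other ubiquitous subunits of complex IV ran from -0.64 for COX7A2 to -0.10 for COX6B1 on the log2 scale. COX6B1, COX7C and COX6C are above 0 with library totals (0.18, 0.13 and 0.09). COX6B1 did not pass without siRPS19 replicate 1 (adjusted p = 0.22) or replicate 3 (adjusted p = 0.064). COX4I2, COX6A2, COX7A1, COX7B2 and COX8C, the forms of lung, heart and muscle or testis, had too few counts to be tested, and COX7A1, for example, had 0.308, 0.304 and 0.207 CPM in siRPS19 libraries, against 0.0959, 0.203 and 0.155 CPM in siOTP libraries. COX6B2, the testis form, had 1.77, 1.69 and 1.78 CPM in siRPS19 libraries, against 1.06, 1.47 and 1.24 CPM in siOTP libraries. Its log2 fold change of 0.48 had adjusted p = 0.045, with 0.056 under the replicate number as a block and 0.26 in DESeq2. COX6B2 did not pass without siOTP replicate 1 or 3 (adjusted p = 0.20 and 0.10) or without siRPS19 replicate 1, 2 or 3 (adjusted p = 0.073, 0.056 and 0.081). Its ubiquitous partner COX6B1 had 215, 230 and 228 CPM in siRPS19 libraries and 239, 238 and 245 CPM in siOTP libraries.

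Complex V has a catalytic head (F1), a membrane rotor ring of c subunits and a peripheral stalk. In the head, the subunits α, β and γ fell and δ and ε did not pass. ATP5B (ENSG00000110955, chromosome 12, 57031959 to 57039798, hg19), the β subunit that holds the catalytic sites, had 502, 513 and 525 CPM in siRPS19 libraries, against 1382, 1378 and 1404 CPM in siOTP libraries. It fell 2.71-fold (log2 fold change -1.44 ± 0.04 SE, adjusted p = 8.92e-18). In the authors' deposited table, whose RPKM is a level per transcript length, ATP5B had 248.49 RPKM in siRPS19, below COX6B1 at 262.8 RPKM, and 552.04 RPKM in siOTP, where it was the highest of the tested members. ATP5C1, the γ subunit that turns inside the head, had 125, 134 and 133 CPM in siRPS19 libraries, against 224, 231 and 240 CPM in siOTP libraries (log2 fold change -0.83 ± 0.04 SE, adjusted p = 1.72e-13). ATP5A1, the α subunit, averaged 312 ± 8.86 CPM in siRPS19 and 497 ± 3.63 CPM in siOTP (SD of 3 libraries each; log2 fold change -0.67).

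At the other end ATP5E, the ε subunit, had 154, 167 and 163 CPM in siRPS19 libraries, against 161, 158 and 168 CPM in siOTP libraries. The groups overlap, the log2 fold change was -0.01 ± 0.04 (SE) and adjusted p = 0.86, and with library totals ATP5E was above 0, at 0.28. ATP5D, the δ subunit, had a log2 fold change of -0.09 and passed only without siOTP replicate 2 (-0.14, adjusted p = 0.038) among the 6 single libraries left out. The log2 ratio of ATP5B to ATP5E was 1.67 ± 0.04 in siRPS19 and 3.10 ± 0.03 in siOTP (SD of 3 libraries each), and that of ATP5B to ATP5A1 was 0.72 ± 0.01 in siRPS19 and 1.48 ± 0.02 in siOTP (SD of 3 libraries each). Genes of 1 enzyme head thus differed in their change by up to 1.43 on the log2 scale. These pairs, too, were picked after their values were seen and are given with no test.

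The rotor ring is built from copies of the c subunit, which 3 genes encode. Their mature protein is the same, so the genes are shown by the last 234 coding bases (GENCODE 29, GRCh38), the longest end over which the 3 proteins are alike, which spell 77 amino acids and a stop. Capitals stand at positions where the 3 genes are not all alike.
ATP5G1: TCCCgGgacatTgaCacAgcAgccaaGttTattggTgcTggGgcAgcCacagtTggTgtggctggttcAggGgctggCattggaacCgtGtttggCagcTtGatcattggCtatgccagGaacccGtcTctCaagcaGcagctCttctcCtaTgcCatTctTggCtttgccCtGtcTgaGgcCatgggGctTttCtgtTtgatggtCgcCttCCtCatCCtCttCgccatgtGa
ATP5G2: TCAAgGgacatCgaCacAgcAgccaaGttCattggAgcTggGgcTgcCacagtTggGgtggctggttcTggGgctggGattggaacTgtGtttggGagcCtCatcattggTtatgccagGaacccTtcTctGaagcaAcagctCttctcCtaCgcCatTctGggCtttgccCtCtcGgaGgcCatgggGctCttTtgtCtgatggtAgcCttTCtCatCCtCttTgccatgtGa
ATP5G3: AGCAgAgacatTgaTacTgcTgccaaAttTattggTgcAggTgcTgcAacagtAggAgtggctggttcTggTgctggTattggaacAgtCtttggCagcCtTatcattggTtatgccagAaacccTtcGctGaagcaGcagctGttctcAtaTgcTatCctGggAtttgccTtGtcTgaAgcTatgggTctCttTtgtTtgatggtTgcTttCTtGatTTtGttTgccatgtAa

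The sequences differ at 58 positions in 51 of 78 codons, and in 0 of these does the amino acid change. ATP5G1 and ATP5G2 were 88.5% identical, and ATP5G3 was 79.9% identical to each. The longest run without a difference was 17 bases, shorter than the reads of 50 bases, so a read inside this stretch differs among these 3 genes. Pseudogenes were not part of this comparison, and those named for ATP5G1 held counts equal to 0.13% of ATP5G1's in siRPS19 and 0.72% in siOTP. Transcripts of ATP5G1 and of ATP5G2 had 2 distinct coding ends each, and that of the longest coding sequence is shown. All 3 genes fell, by unequal amounts. ATP5G1 had 79.8, 85.0 and 85.0 CPM in siRPS19 libraries, against 174, 168 and 181 CPM in siOTP libraries (log2 fold change -1.07 ± 0.04 SE, adjusted p = 3.78e-15). ATP5G3 had 169, 181 and 174 CPM in siRPS19 libraries, against 286, 284 and 293 CPM in siOTP libraries (log2 fold change -0.72 ± 0.04 SE, adjusted p = 5.82e-13). ATP5G2 had 226, 241 and 233 CPM in siRPS19 libraries, against 293, 279 and 299 CPM in siOTP libraries (log2 fold change -0.32 ± 0.04 SE, adjusted p = 4.80e-07).

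The mix of c-subunit mRNA differed between the groups. Per kilobase of the authors' transcript length, ATP5G1 made up 27.4% ± 0.392 of the sum in siRPS19 and 36.7% ± 0.281 in siOTP, ATP5G2 50.4% ± 0.267 in siRPS19 and 40.0% ± 0.275 in siOTP, and ATP5G3 22.2% ± 0.130 in siRPS19 and 23.3% ± 0.437 in siOTP (SD of 3 libraries each). In CPM without the length, ATP5G1 made up 16.9% in siRPS19 and 23.2% in siOTP, and ATP5G2 47.5% in siRPS19 and 38.6% in siOTP. ATP5G3 then made up 35.6% in siRPS19 and 38.2% in siOTP. The order of ATP5G1 and ATP5G3 thus depends on the transcript lengths used, whereas each share moved in the same direction in both measures. Of the peripheral stalk, ATP5O, ATP5F1 and ATP5J fell, with log2 fold changes of -0.74, -0.31 and -0.38, and ATP5H did not pass (-0.10, adjusted p = 0.055, and adjusted p = 0.034 with the replicate number as a block, without siOTP replicate 1 and without siRPS19 replicate 3). The small membrane subunits e, f and g, from ATP5I, ATP5J2 and ATP5L, fell, with -0.53, -0.88 and -0.36. ATP5SL, which carries an ATP synthase name but is known as an assembly factor of complex I, fell by 0.67, and ATP5S did not pass. ATP5L2 and ATP5J2LP had too few counts to be tested.

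**Figure D5:**
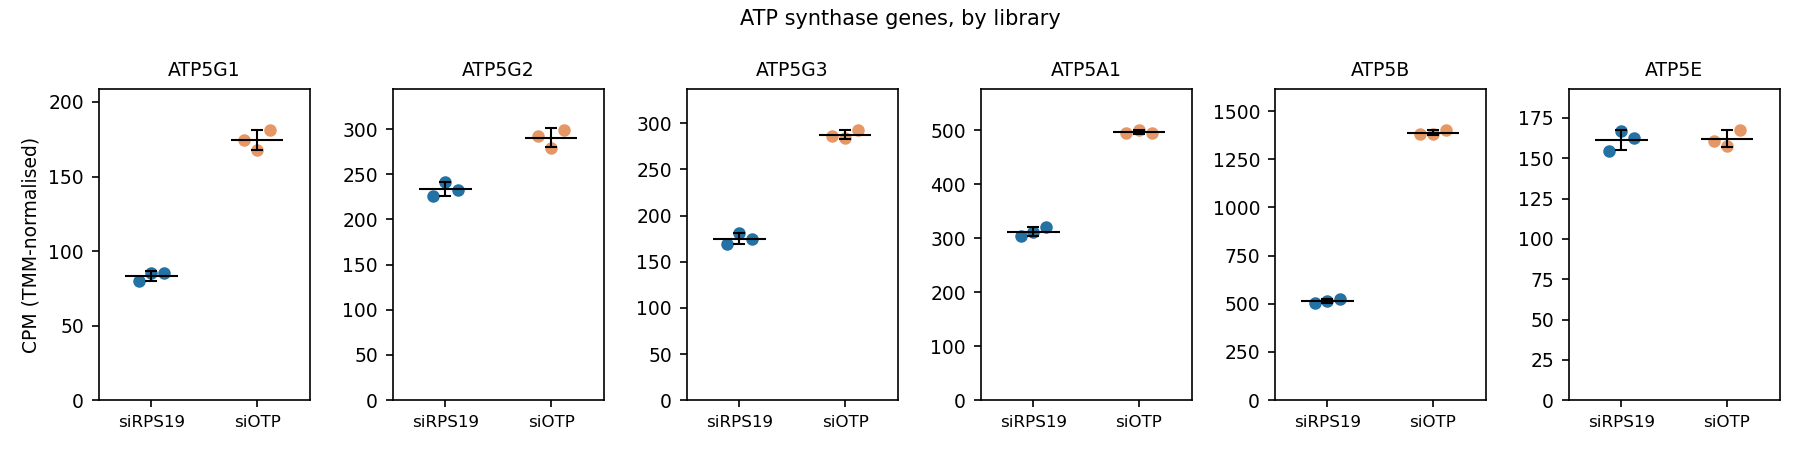
CPM (y axis, from 0, with its own scale per panel) of the c-subunit genes ATP5G1, ATP5G2 and ATP5G3 and of ATP5A1, ATP5B and ATP5E in the 3 siRPS19 and the 3 siOTP libraries (points), with mean and SD (lines). All but ATP5E are lower in siRPS19 with the groups apart, and the groups overlap for ATP5E.

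Subunits encoded in mitochondrial DNA are the partners of these proteins within complexes I, III, IV and V. Of 13 such genes 0 fell in edgeR, DESeq2 or limma-voom, and 0 were lower at an unadjusted p under 0.05 in these. In edgeR 38.9% of all tested genes fell and 39.5% rose. MT-ND3 rose, with 739, 573 and 576 CPM in siRPS19 libraries, against 357, 355 and 241 CPM in siOTP libraries (log2 fold change 0.98, adjusted p = 0.013), and limma-voom called 3 genes higher. Their summed level was wide within each group, from 29301 to 51438 CPM in siRPS19 and from 22412 to 39894 CPM in siOTP, so that small changes were not detectable. Their median log2 fold change was 0.14, against -0.33 for the nuclear-encoded members.

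Regulators of respiratory genes were mostly lower. Of 11 tested, 10 fell and TFB1M rose (log2 fold change 0.26), against 38.9% and 39.5% of all tested genes, with a median of -0.79. With library totals, too, 10 fell and 1 rose. This list and the lists of electron carriers and assembly factors below were chosen with earlier results of these data known. The shares of these lists are a description and not a test. PPRC1, a coactivator of the PGC-1 family, had 54.6, 50.0 and 55.1 CPM in siRPS19 libraries, against 165, 159 and 157 CPM in siOTP libraries (log2 fold change -1.59). YY1 fell by 0.85 on the log2 scale. TFAM, which packages mitochondrial DNA and takes part in its transcription, fell by 0.79. NRF1, an activator of respiratory genes, had 11.6, 11.3 and 11.0 CPM in siRPS19 libraries, against 24.6, 22.7 and 26.1 CPM in siOTP libraries (log2 fold change -1.11). PPARGC1A had too few counts to be tested.

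Cytochrome c and coenzyme Q carry electrons between the complexes. A list of cytochrome c, coenzyme Q synthesis, ATP synthase regulators and some further subunits held 17 genes. These subunits, NDUFAB1 of complex I and USMG5 and C14orf2 of complex V, have symbols that the rule for members did not match. They fell, with log2 fold changes of -0.93, -0.51 and -0.31. Of the 17 genes 10 fell and 3 rose, against 38.9% and 39.5% of all tested genes, with a median log2 fold change of -0.40. With library totals 9 fell and 7 rose, with a median of -0.11. CYCS, cytochrome c, had 62.2, 62.0 and 60.4 CPM in siRPS19 libraries, against 411, 416 and 416 CPM in siOTP libraries (log2 fold change -2.75 ± 0.04 SE, adjusted p = 1.90e-22), a larger fall than that of any member. COQ2 and PDSS1, which make coenzyme Q, had log2 fold changes of -1.81 and -1.71. ADCK3, a kinase-like gene of coenzyme Q synthesis, had 120, 127 and 123 CPM in siRPS19 libraries, against 36.1, 33.6 and 33.3 CPM in siOTP libraries (log2 fold change 1.85 ± 0.05 SE, adjusted p = 2.44e-18). ATPIF1, the inhibitor of the ATP synthase, rose by 0.50 and COQ4 by 0.74.

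Assembly factors followed no single direction. Of all tested genes, 38.9% fell and 39.5% rose. For complex I 11 of 15 fell and 3 rose, with a median log2 fold change of -0.41, the falls with the smallest p being ECSIT (-1.32), FOXRED1 (-1.38) and NDUFAF2 (-0.81). For complex II 1 of 4 fell (SDHAF1, -0.62, which aids maturation of SDHB) and 1 rose (SDHAF4, 0.69, which binds SDHA), with a median of -0.02. For complex III 4 of 6 fell, among them BCS1L (-0.74), which inserts the Rieske protein, and 2 rose, TTC19 (0.36) and UQCC1 (0.30), with a median of -0.58. For complex IV 14 of 22 fell and 5 rose, with a median of -0.41, COA4 (-1.04), COA7 (-1.17) and CMC2 (-1.15) being lower and SURF1 (0.74) and COA5 (0.62) higher. For complex V 1 of 4 fell, TMEM70 (-0.79), and ATPAF1 (0.21) and ATPAF2 (0.40), chaperones of the F1 head, rose, with a median near 0 (-0.0014). With library totals 7 fell and 4 rose for complex I (median -0.12), 1 fell and 2 rose for complex II (0.27), 4 fell and 2 rose for complex III (-0.29), 12 fell and 8 rose for complex IV (-0.13), and 1 fell and 2 rose for complex V (0.28).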

How the data were processed

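For 6 libraries the authors deposited raw counts of reads on Ensembl genes, and for the 2 groups a table of RPKM, 1 value per group. The tools named in the submitters' processing notes are TopHat2 (2.0.8b), HTSeq, DESeq and R (3.0.2), on build hg19, with the counting mode and annotation release not given in the sources used here. Symbols, coordinates and transcript lengths come from the authors' deposited RPKM table, which also holds the authors' mean count signal per group, equal to the mean of the libraries plus 1 for 100% of genes (relative tolerance 0.001).

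Entries that name no gene were left out, of which ambiguous reads made up 7.50% to 7.60% of entries in siRPS19 and 8.10% to 8.24% in siOTP. Genes were filtered with filterByExpr (minimum count 10, minimum total 15) in edgeR 4.0.16 under R 4.3.3, scaled with TMM factors (1.09 to 1.11 in siRPS19, 0.903 to 0.907 in siOTP) and compared with the quasi-likelihood test without a block, with Benjamini-Hochberg adjustment over all tested genes at 0.05. The script was tested on simulated data. DESeq2 1.42.0, limma 3.58.1 (voom), other scalings, filters, a replicate block and leaving out libraries were alternatives.

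Libraries of the 2 groups with equal replicate numbers carry the same date in the labels' descriptions, which do not say what the date marks, and a blocked fit on these numbers is among the alternatives. Across genes, their deviations from the means of their groups correlated at 0.055, -0.095 and 0.045 for the 3 pairs. Replicates differed beyond sampling noise (chi-square per degree of freedom 4.40 to 16.6). The labels call them biological replicates, and p-values measure the spread between these libraries.

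Members and gene lists were chosen with earlier results of these data known. Values per library are given for members that rose, up to 4 per complex with the smallest p among those that fell, complex II, isoform and paralog groups and members near 0, and up to 3 genes per direction of each list could be named. ATP5A1 in the plot by library, the counts of NDUFV2, and NRF1, NDUFAB1, USMG5 and C14orf2 lie outside that rule. Promoters matched 67 members by current symbol. Of transcript windows of 50 bases in GENCODE 29, a median of 5.2% per member were shared with another gene, and 4 of 91 members shared at least 50%. Some withheld items are not reported here.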

Additional observations from a re-analysis of the deposited data

How the results depend on the processing

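Of the 79 tested members, 35 kept their direction and their side of the threshold under all alternatives run, 29 of which fell and 5 rose. The scaling had the largest effect on direction. Library totals gave 28 members higher and 29 lower, and medians of 0.056 for complex I, 0.052 for II, -0.10 for III, -0.095 for IV and -0.24 for V. Upper-quartile factors gave 16 higher and medians of -0.057 for I, -0.062 for II, -0.21 for III, -0.21 for IV and -0.35 for V, where the log2 fold changes of all genes moved up by 0.17 at the median. These 2 scalings also moved the share of higher calls among all genes to 65.8% and 59.8%, against 50.4% with TMM. The log2 ratio of the summed levels with library totals, an alternative chosen after seeing the data, was 0.18 for complex II, against -0.11 with TMM. DESeq2 gave 5 members higher and a median of -0.23 for complex IV. Members overlapping no other gene, fewer by construction, gave 2 higher and 20 lower, with medians of -0.045 for II, -0.59 for III and -0.67 for V. Members at a mean of 5 CPM or more, an alternative chosen after seeing the data, gave 6 higher and 53 lower.

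Genes whose log2 fold change turned above 0 with library totals were NDUFB4 0.039, NDUFC1 0.073, NDUFA1 0.083, NDUFV1 0.15, NDUFS4 0.17, NDUFB5 0.21, NDUFA3 0.22, SDHC 0.24, UQCRC1 0.11, UQCRQ 0.12, UQCRB 0.14, COX6C 0.087, COX7C 0.13, COX6B1 0.18, COX5B 0.20, ATP5H 0.19, ATP5D 0.20, ATP5S 0.24 and ATP5E 0.28. With upper-quartile factors they were NDUFV1 0.037, NDUFS4 0.054, SDHC 0.13, UQCRQ 0.0011, UQCRB 0.028, COX7C 0.015, COX6B1 0.070 and ATP5E 0.16.

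As single libraries or pairs were left out, the members higher numbered 6 to 9 and those lower 48 to 59, the median ranged from -0.28 to -0.20 for complex I, -0.30 to -0.18 for II, -0.43 to -0.36 for III, -0.42 to -0.31 for IV and -0.64 to -0.33 for V (-0.63 without replicate 2 of both groups, -0.61 without siOTP replicate 2 and -0.37 without siRPS19 replicate 1), and RPS19 from -5.21 to -5.05. All tested genes gave 6259 to 6850 higher and 6210 to 6673 lower. With the replicate block 8 members were higher and 56 lower, and the calls of COX6B2 and ATP5H were the only member calls that changed with this pairing. Members with few counts (NDUFV2, NDUFA13, NDUFA7) are the least precise. Apart from the scalings' own shift, the cause of these differences was not tested.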
